A study of Mus musculus with 18 samples.

Results

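The genes described are 10 handlers of cellular zinc: 5 transporters of the Slc30 (ZnT) family, 3 of the Slc39 (ZIP) family, and the metallothioneins Mt1 and Mt2. They are a named set, 10 of the 19475 genes measured through a probe set assigned to 1 gene on the arrays. The set was drawn up after a difference at 4 h of LPS was known, at which Slc30a4 had the lowest KO minus HET value of all 19475 genes. The members were thus chosen by KO and HET values at 4 h, in that Slc30a4 was singled out by its own difference. That contrast was known when the set was drawn up, so it is given for every member without a test. The other members ranked between 696 (Slc39a14) and 18945 (Slc30a5) when counted from the lowest difference. Because Slc30a4 was singled out by 4 h arrays, it has no test in any comparison that uses them. The cells were bone marrow-derived macrophages on the 7th day of differentiation, from mice with a mixed genetic background, 94% of it C57BL/6 and 6% 129/Ola. KO cells were Wbp7-/- and HET cells Wbp7+/-, so every group carried at least 1 mutant allele and no wild-type cells were measured here. Each genotype was left untreated or given lipopolysaccharide (LPS, a bacterial cell wall component that activates macrophages, at 10 ug/ml) for 2 h or 4 h, with 3 arrays in each of the 6 groups. Wbp7, also named Kmt2b, is a methyltransferase for lysine 4 of histone H3. How the allele was deleted, and whether the 3 replicates of a group came from separate mice or cultures, are not stated in the labels, so p-values measure the spread between these arrays, which may be technical.

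Zinc is held in cells at a low free concentration by transport and by binding. ZnT proteins lower zinc in the cytosol by moving it out of the cell or into vesicles and the secretory pathway, whereas ZIP proteins bring it into the cytosol. Metallothioneins are small cysteine-rich proteins that bind zinc and copper, and the genes Mt1 and Mt2, like Slc30a1, are switched on by the zinc-sensing factor Mtf1 through metal response elements in their promoters. Macrophages change the distribution of zinc when they meet bacterial products, withholding it from microbes or loading it into vesicles.

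The promoters of Slc30a1, Mt1 and Mt2 are shown because Mtf1 is known to act on these genes through metal response elements. The Slc30a4 promoter is shown because Slc30a4 had the largest genotype difference of the set. Sequences are from RefSeq, build GRCm38.p6, and run from 250 bases before the start to 50 bases after it, 5′ to 3′ on the gene's strand. Capitals mark the core of a metal response element, TGCACNC or TGCGCNC, on either strand, and no 2 of the matches overlapped. The windows are chr2:122702614-122702913 (minus strand) for Slc30a4, chr1:191906531-191906830 (plus strand) for Slc30a1, chr8:94178839-94179138 (plus strand) for Mt1 and chr8:94172368-94172667 (plus strand) for Mt2.
Slc30a4: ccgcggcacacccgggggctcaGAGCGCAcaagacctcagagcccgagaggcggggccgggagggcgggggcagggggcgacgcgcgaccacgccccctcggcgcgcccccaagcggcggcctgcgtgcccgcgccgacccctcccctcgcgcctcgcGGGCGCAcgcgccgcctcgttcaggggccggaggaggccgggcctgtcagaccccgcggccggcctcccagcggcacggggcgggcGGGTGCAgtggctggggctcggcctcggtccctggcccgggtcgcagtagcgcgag
Slc30a1: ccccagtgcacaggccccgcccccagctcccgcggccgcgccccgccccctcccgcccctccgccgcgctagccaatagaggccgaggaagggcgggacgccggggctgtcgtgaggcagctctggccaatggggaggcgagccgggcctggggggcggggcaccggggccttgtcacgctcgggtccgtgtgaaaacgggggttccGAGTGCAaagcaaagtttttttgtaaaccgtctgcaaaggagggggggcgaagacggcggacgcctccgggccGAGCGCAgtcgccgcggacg
Mt1: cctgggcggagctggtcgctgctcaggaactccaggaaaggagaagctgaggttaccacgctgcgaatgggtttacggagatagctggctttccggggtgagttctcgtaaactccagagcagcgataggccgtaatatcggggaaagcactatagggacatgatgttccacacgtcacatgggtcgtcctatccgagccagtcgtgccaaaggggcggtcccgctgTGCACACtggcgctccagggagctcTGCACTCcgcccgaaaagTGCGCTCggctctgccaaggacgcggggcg
Mt2: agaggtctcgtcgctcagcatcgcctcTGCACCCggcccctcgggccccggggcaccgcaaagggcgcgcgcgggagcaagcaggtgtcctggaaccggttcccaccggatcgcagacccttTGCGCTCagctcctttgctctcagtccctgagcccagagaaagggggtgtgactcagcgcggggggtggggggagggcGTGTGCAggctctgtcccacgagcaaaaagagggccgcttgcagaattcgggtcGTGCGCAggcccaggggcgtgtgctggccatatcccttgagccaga
Promoters of 8 of the 10 genes were searched, and Slc39a6 and Slc39a14 were not among them. Slc30a4 held 3 matches, Mt1 also 3, Mt2 held 4 and Slc30a1 held 2, while Slc30a5 held 1 and Slc30a6, Slc30a7 and Slc39a1 held 0. Among 32851 promoters of the same length, 25.7% held at least 1 match, 7.11% at least 2, 1.97% at least 3 and 0.517% at least 4. The Slc30a4 window had 46 CpG dinucleotides, a number that 98.4% of promoters fell short of, and was 81.7% G or C. The median promoter had 7 CpG, and Mt1 and Mt2 each had 24. The shares were taken over all promoters, without matching for CpG content. A match describes letters in a window and is no evidence that a factor binds there.

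The arrays gave median log2 values between 8.05 and 8.13. Array signal is a log2 level after the authors' normalization, it carries no counts, and precision is limited by how many arrays there are. All 7 macrophage markers were measured, with a mean log2 level of 12.95 to 13.19 in KO and 12.96 to 13.41 in HET arrays, and 6 neutrophil markers averaged 8.39 to 9.04 in KO and 7.77 to 8.98 in HET arrays. The T and B cell markers, 4 of 6 measured, averaged 6.25 to 6.53 in KO and 6.34 to 6.65 in HET arrays. The Kmt2b probe set did not pass between the genotypes (KO minus HET -0.24, -0.06 and -0.09 at 0, 2 and 4 h), and which part of the transcript it covers is not given here, so it does not check the deletion. Il1b, Tnf, Cxcl2 and Nfkbia, standard LPS-induced genes, rose in both genotypes at both times. The HET replicate 1 arrays stood apart at all 3 times. Their mean level of 5 cell cycle genes was 8.44 to 8.85, against 11.43 to 12.37 on the other 15 arrays. Where leaving them out changed a call for a gene of the set, the value without them is given. Differences that changed no call moved too, and not all of those are given.

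Slc30a4, singled out by its KO minus HET value at 4 h, had lower values in KO than in HET macrophages at every time, with no overlap between the genotypes. It encodes ZnT4, a transporter that moves zinc into vesicles such as those of the endosomal and lysosomal route, and whose loss causes the lethal milk phenotype in mice. In untreated cells its log2 level was 6.64, 5.95 and 6.72 on KO arrays and 9.00, 8.63 and 8.18 on HET arrays. At 2 h of LPS it was 6.98, 6.09 and 7.05 on KO arrays and 10.59, 9.64 and 8.45 on HET arrays. At 4 h it was 6.92, 6.20 and 7.68 on KO arrays and 11.50, 10.26 and 8.97 on HET arrays. The highest KO array of the 9 thus lay under the lowest HET array. That separation includes the 4 h arrays by which the gene was singled out, so it is a description and no support. How many of all genes separated in this way is not given here. KO values fell under the lower quartile of their own array on 4 of 9 arrays, and HET values on 0 of 9, so the KO level is near the bottom of the measured range and the fold change may be understated. In bulk RNA, fewer cells that express a gene and less of its RNA per cell cannot be told apart.

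**Figure D1:**
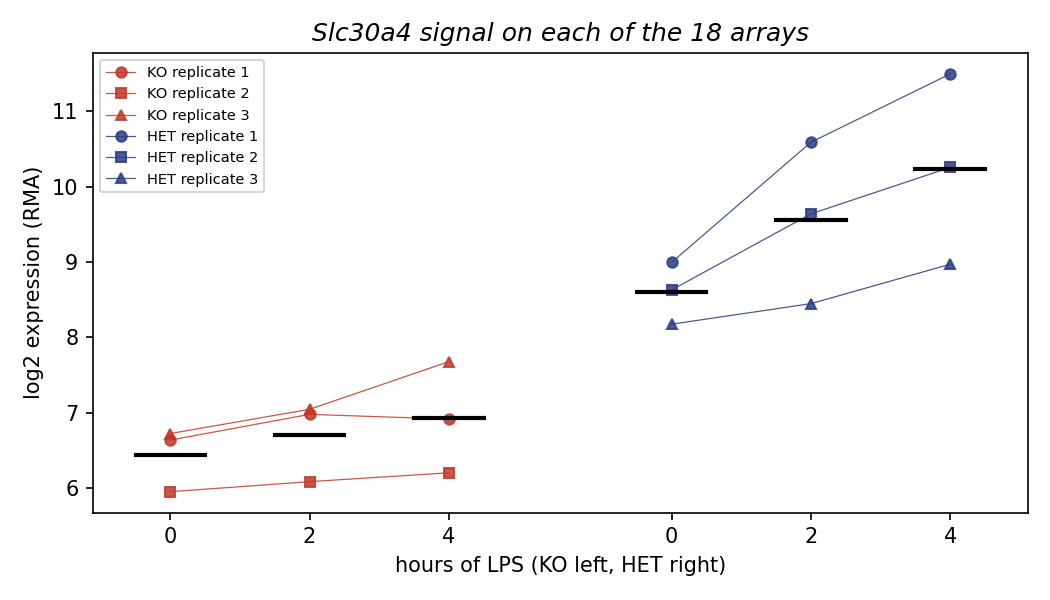
Slc30a4 log2 expression (vertical axis) on each of the 18 arrays against hours of LPS (horizontal axis), KO left and HET right, with a marker shape per replicate number, lines joining arrays of one genotype and number, and a black bar at each group mean. KO means are 6.44, 6.70 and 6.93 at 0, 2 and 4 h, and HET means are 8.60, 9.56 and 10.24.

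The order of the group means, from the lowest, was KO untreated, KO 2 h, KO 4 h, HET untreated, HET 2 h and HET 4 h. The KO means were 6.44 ± 0.423, 6.70 ± 0.536 and 6.93 ± 0.738 at 0, 2 and 4 h (SD, n = 3 each). The HET means were 8.60 ± 0.411, 9.56 ± 1.07 and 10.24 ± 1.26 (SD, n = 3 each). Neighbouring times within a genotype overlapped in their ranges, whereas KO at 4 h and HET untreated, the neighbours across genotypes, did not. In untreated cells the KO minus HET difference was -2.16 ± 0.590 (SE), a 4.48-fold lower level that did not pass (adjusted p = 0.241 by limma). At 2 h it was -2.86 ± 0.590, 7.24-fold lower, and passed (adjusted p = 0.0195 by limma). Same-numbered arrays of a genotype deviated together across times, so the 2 h call is not independent of the 4 h value by which the gene was singled out. At 4 h the difference was -3.31, or 9.91-fold.

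The 2 h call for Slc30a4 was lost when KO 2 h replicate 1 (adjusted p = 0.0573), KO 2 h replicate 2 (0.0854) or HET 2 h replicate 1 (0.109) was left out. With HET replicate 1 left out at all 3 times, the differences were -1.96 in untreated cells, -2.34 at 2 h and -2.68 at 4 h, with adjusted p of 0.140 and 0.0261 for the earlier pair.

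Slc30a4 was higher with LPS on all same-numbered array pairs of both genotypes. Over 4 h it gained 0.28, 0.25 and 0.95 log2 units in KO replicates 1, 2 and 3, and 2.50, 1.63 and 0.80 in HET replicates 1, 2 and 3. The mean gain over untreated cells at 4 h was 0.49 in KO and 1.64 in HET. At 2 h the gain was 0.27 in KO (adjusted p = 0.921) and 0.96 in HET (adjusted p = 0.339), and neither passed. The genotypes differed in that 2 h gain by -0.69 ± 0.834 (SE), which did not pass. HET replicate 1 carried the largest gain, and without it at all 3 times the HET gains were 0.64 at 2 h and 1.21 at 4 h.

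Outside the set, 5 genes were chosen for having the highest Pearson correlation with Slc30a4 over the 18 arrays. They were Plod2 (r = 0.945), Mmp12 (0.931), Il1r2 (0.915), Il3ra (0.914) and Rac3 (0.913). The 18 points share 2 genotypes and 3 times, and arrays of one number and genotype deviate together. Plod2, a lysyl hydroxylase of collagen, was 7.15, 6.35 and 6.58 at 4 h on KO arrays and 10.32, 8.70 and 8.86 on HET arrays. Mmp12, the macrophage elastase, was 10.79, 9.84 and 11.02 at 4 h on KO arrays and 12.30, 11.56 and 11.34 on HET arrays. Both had their highest 4 h value on HET replicate 1, as Slc30a4 did.

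None of the other 9 genes passed between the genotypes in untreated cells or at 2 h of LPS. By limma, 0 of the 10 passed in untreated cells, where 0.416% of all genes did, and 1 of 10 at 2 h, which is Slc30a4, where 2.76% did. At an unadjusted p under 0.05 the 10 gave 1 in untreated cells and 3 at 2 h, again with Slc30a4 among them, where 4.44% and 15% of all genes did. The median KO minus HET difference of the 10 was -0.02 in untreated cells and -0.13 at 2 h, against -0.02 and 0.00 over all genes. At 4 h, the contrast known when the set was drawn up, the median was -0.23, against -0.06 over all genes, as a description with no test.

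**Figure D2:**
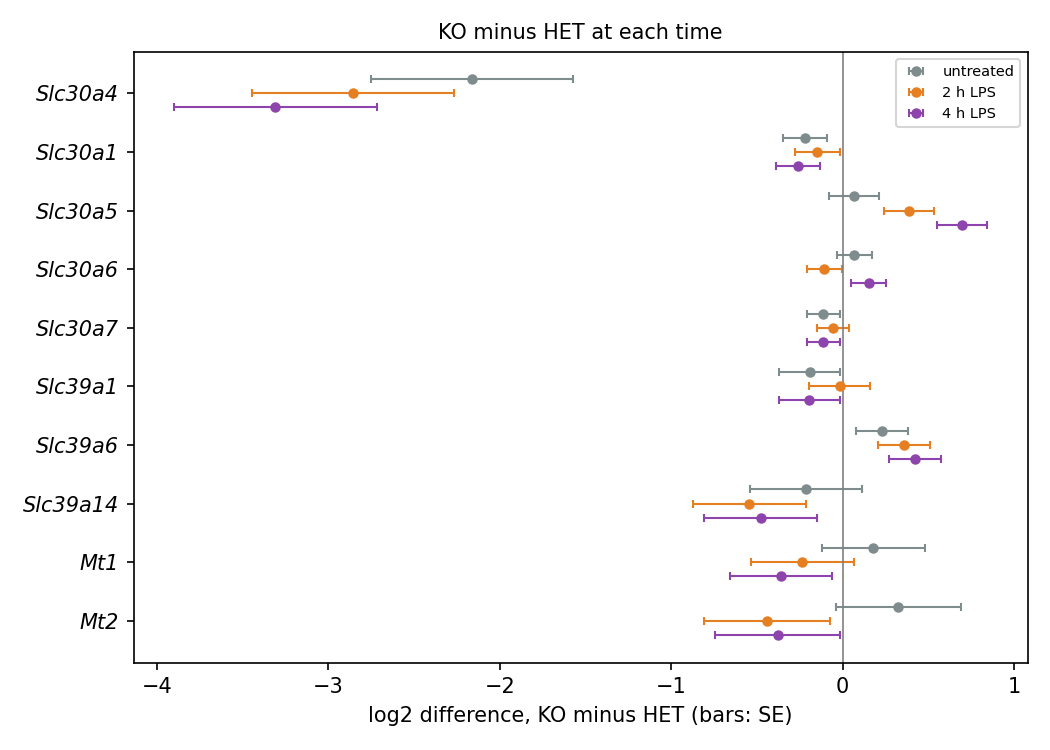
KO minus HET log2 difference (horizontal axis) of the 10 genes (vertical axis), untreated or with 2 h or 4 h of LPS, with SE bars and a line at 0. Slc30a4 stands at -2.16, -2.86 and -3.31, and the others lie between -0.54 and 0.70.

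Slc30a1 rose by 4 h of LPS in both genotypes. It encodes ZnT1, the zinc exporter of the plasma membrane. KO arrays had 9.36, 9.52 and 9.49 untreated, 9.33, 9.34 and 9.50 at 2 h and 9.98, 10.12 and 10.27 at 4 h. HET arrays had 10.01, 9.42 and 9.60 untreated, 9.69, 9.41 and 9.50 at 2 h and 10.47, 10.28 and 10.39 at 4 h. In each genotype all 4 h arrays lay above all 2 h arrays, and 4 h lay above untreated in each same-numbered pair. The 4 h gain was 0.67 ± 0.129 (SE) in KO (1.59-fold, adjusted p = 0.00190) and 0.71 ± 0.129 in HET (1.63-fold, adjusted p = 0.000548). The 2 h change did not pass (-0.07 in KO and -0.14 in HET), and 4 h exceeded 2 h by 0.73 in KO (adjusted p = 0.00330) and 0.85 in HET (adjusted p = 0.000861). These calls held in all 25 alternative fits.

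Slc30a5 fell with LPS in both genotypes. It encodes ZnT5, which forms heterodimers with ZnT6 (Slc30a6) and brings zinc to enzymes of the early secretory pathway. KO arrays had 11.34, 11.38 and 11.52 untreated, 11.21, 11.26 and 11.26 at 2 h and 10.70, 10.92 and 10.88 at 4 h. HET arrays had 11.33, 11.43 and 11.28 untreated, 10.63, 10.99 and 10.95 at 2 h and 9.71, 10.35 and 10.35 at 4 h. Within each genotype the 3 times did not overlap, and the genotypes overlapped only in untreated cells. The 4 h change was -0.58 ± 0.144 (SE) in KO (adjusted p = 0.0111) and -1.21 ± 0.144 in HET (adjusted p = 1.19e-05), a 1.5-fold and a 2.32-fold decrease. At 2 h it was -0.17 in KO (adjusted p = 0.744) and -0.49 in HET (adjusted p = 0.0306). The KO level exceeded the HET level by 0.39 at 2 h (adjusted p = 0.190) and by 0.70 at 4 h. With HET replicate 1 left out at all times these differences were 0.28 and 0.49.

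Slc30a5 continued to fall after 2 h, and part of its calls rested on single arrays. Between 2 and 4 h the change was -0.41 in KO (adjusted p = 0.153, or 0.0244 with the replicate number of each genotype as a random block) and -0.72 in HET (adjusted p = 0.00550). The KO call at 4 h was lost without untreated KO replicate 3 (adjusted p = 0.0561) or KO 4 h replicate 1 (0.0612). The HET call at 2 h was lost without untreated HET replicate 1 (adjusted p = 0.0607), 2 (0.103) or 3 (0.0549), or HET 2 h replicate 1 (0.162). With HET replicate 1 left out at all times, the HET change at 4 h was -1.01 (adjusted p = 2.69e-06), and the KO change between 2 and 4 h passed (adjusted p = 0.00301). The difference in the 2 h response between genotypes was 0.32 ± 0.204 (SE) and did not pass, and at 4 h the responses stood at -0.58 in KO and -1.21 in HET, with no test of the difference.

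Slc30a6, the partner of Slc30a5, moved the other way. KO arrays had 10.09, 10.28 and 10.20 untreated, 10.59, 10.42 and 10.69 at 2 h and 10.62, 10.65 and 10.65 at 4 h. HET arrays had 9.95, 10.06 and 10.35 untreated, 10.74, 10.61 and 10.66 at 2 h and 10.36, 10.56 and 10.55 at 4 h. Every LPS array lay above every untreated array of its genotype. It rose by 0.45 ± 0.102 (SE) at 4 h in KO (adjusted p = 0.00587), by 0.55 ± 0.102 at 2 h in HET (adjusted p = 0.00139) and by 0.37 ± 0.102 at 4 h in HET (adjusted p = 0.0111), and these 3 calls held in all 25 alternative fits. The KO gain of 0.38 at 2 h did not pass (adjusted p = 0.0609), and passed with the replicate block (adjusted p = 0.0140) or with HET replicate 1 left out at all times (adjusted p = 0.0165).

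Slc30a7 encodes ZnT7, a transporter of the Golgi region, and its shifts were small. The KO arrays lay between 10.89 and 11.14 untreated and between 11.16 and 11.31 at 4 h, and the HET arrays between 10.97 and 11.15 untreated and between 11.19 and 11.48 at 4 h. The 4 h gain was 0.25 ± 0.0950 (SE) in both genotypes, just past the threshold in HET (adjusted p = 0.0488) and not in KO (adjusted p = 0.0914, or 0.0121 with the replicate block). The HET call was lost in 14 of the 18 fits that left out 1 array, with adjusted p of 0.0520 to 0.181: those without untreated KO replicates 1 and 3, any KO LPS array, any untreated HET array, HET 2 h replicate 3, or HET 4 h replicates 1 and 3. It was also lost with HET replicate 1 left out at all times (adjusted p = 0.0885).

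**Figure D3:**
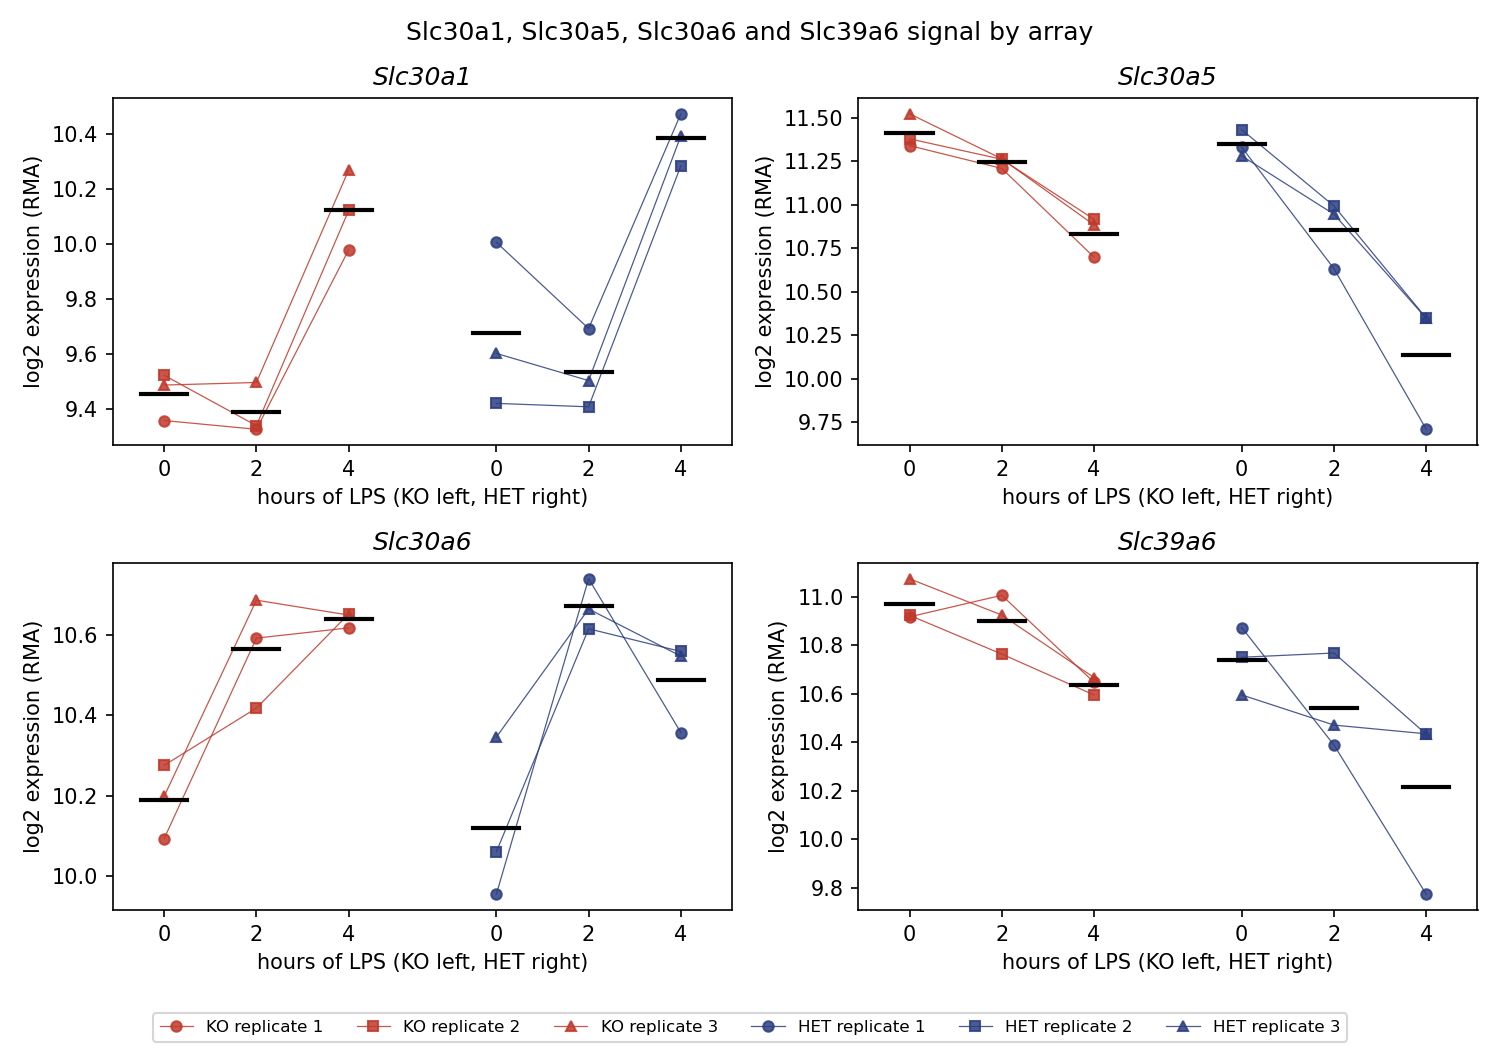
Log2 expression (vertical axes) of Slc30a1, Slc30a5, Slc30a6 and Slc39a6 on each array against hours of LPS (horizontal axes), KO left and HET right, with lines joining arrays of one genotype and replicate number and black bars at group means. Slc30a1 rises at 4 h by 0.67 in KO and 0.71 in HET, Slc30a5 falls by 0.58 and 1.21, Slc30a6 rises by 0.45 and 0.37, and the Slc39a6 fall in HET is largest in replicate 1.

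Among the 3 importers, Slc39a6 alone passed for an LPS response. It encodes ZIP6, a zinc importer of the plasma membrane. KO arrays had 10.92, 10.92 and 11.07 untreated and 10.65, 10.59 and 10.67 at 4 h, and HET arrays had 10.87, 10.75 and 10.59 untreated and 9.77, 10.43 and 10.43 at 4 h. Untreated and 4 h arrays did not overlap in either genotype. The 4 h change was -0.53 ± 0.152 (SE) in HET (adjusted p = 0.0140) and -0.34 ± 0.152 in KO (adjusted p = 0.171). HET 4 h replicate 1 was the lowest array, and without it the HET change was -0.31 (adjusted p = 0.0677). With HET replicate 1 left out at all 3 times the calls turned over, to -0.24 in HET (adjusted p = 0.109) and -0.34 in KO (adjusted p = 0.0127).

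Slc39a1 (ZIP1, a broadly used importer of the plasma membrane) was higher with LPS on every same-numbered pair of arrays at both times. The 2 h gain was 0.41 ± 0.179 (SE) in KO (adjusted p = 0.366) and 0.23 in HET, and the 4 h gain was 0.28 in both (adjusted p = 0.367 in KO and 0.224 in HET). None passed, and with the replicate block the KO gain at 2 h (adjusted p = 0.0327) and the HET gain at 4 h (adjusted p = 0.0440) did. The KO gain at 2 h also passed with HET replicate 1 left out at all times (adjusted p = 0.0406). A second probe set of the gene had 4 h gains of 0.32 in KO and 0.41 in HET, with no call.

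Slc39a14 (ZIP14, which carries zinc, iron and manganese and is known as an inflammation-induced importer in mouse liver) was also higher at 2 h of LPS on all same-numbered pairs, by 0.16 to 0.91. At 4 h KO replicate 2 stood where it was untreated. In HET arrays it was 11.62, 11.24 and 10.80 untreated, 12.53, 11.98 and 11.41 at 2 h and 12.36, 11.75 and 10.99 at 4 h, with the replicates in the same order each time. KO arrays had 11.07, 10.87 and 11.07 untreated, 11.73, 11.04 and 11.52 at 2 h and 11.52, 10.87 and 11.27 at 4 h. The HET gain at 2 h was 0.76 ± 0.328 (SE), with an adjusted p of 0.152, which became 0.0103 with the replicate block. The KO gain at 2 h was 0.43 (adjusted p = 0.706), and KO minus HET at 2 h was -0.54 (adjusted p = 0.495). The latter was -0.27 with HET replicate 1 left out at all times (adjusted p = 0.802 by limma).

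Neither metallothionein passed between the genotypes or for LPS, and the replicates of a group spread widely. Mt1 had 12.41, 12.97 and 12.48 untreated, 12.42, 12.74 and 12.39 at 2 h and 12.23, 12.89 and 12.25 at 4 h on KO arrays. On HET arrays Mt1 had 11.99, 12.27 and 13.07 untreated, 12.80, 12.38 and 13.07 at 2 h and 13.22, 12.21 and 13.01 at 4 h. The genotypes overlapped at each time, and KO replicate 2 was the highest KO array throughout. KO minus HET for Mt1 was 0.18 ± 0.300 (SE) untreated, -0.24 at 2 h (adjusted p = 0.783) and -0.36 at 4 h. With HET replicate 1 left out at all times these differences were -0.05, -0.21 and -0.16. The LPS changes were -0.17 in KO and 0.37 in HET at 4 h, and neither passed. By replicate number the HET change at 4 h was 1.23, -0.06 and -0.06, and with HET replicate 1 left out at all times it was -0.06 (adjusted p = 0.894).

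For Mt2, as for Mt1, KO replicate 2 was the highest KO array at each time. KO arrays had 13.19, 13.86 and 13.04 untreated, 13.27, 13.85 and 13.20 at 2 h and 13.49, 13.98 and 13.37 at 4 h. HET arrays had 12.06, 13.08 and 13.98 untreated, 14.03, 13.54 and 14.07 at 2 h and 14.18, 13.73 and 14.07 at 4 h. The untreated HET arrays spanned the whole range of the untreated KO arrays, and HET replicate 1 was the lowest of them. By replicate number the HET change at 4 h was 2.12, 0.65 and 0.10, and the KO change was 0.30, 0.12 and 0.33. The mean change at 4 h was 0.25 ± 0.366 (SE) in KO (adjusted p = 0.708) and 0.96 ± 0.366 in HET (adjusted p = 0.0528). The HET value moved with 2 replicates. It became 0.37 (adjusted p = 0.403) with HET replicate 1 left out at all times, and 1.42 (adjusted p = 0.00368) without untreated HET replicate 3. With the replicate block both HET changes passed, the 2 h one of 0.84 with an adjusted p of 0.0433 and the 4 h one with 0.0121.

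**Figure D4:**
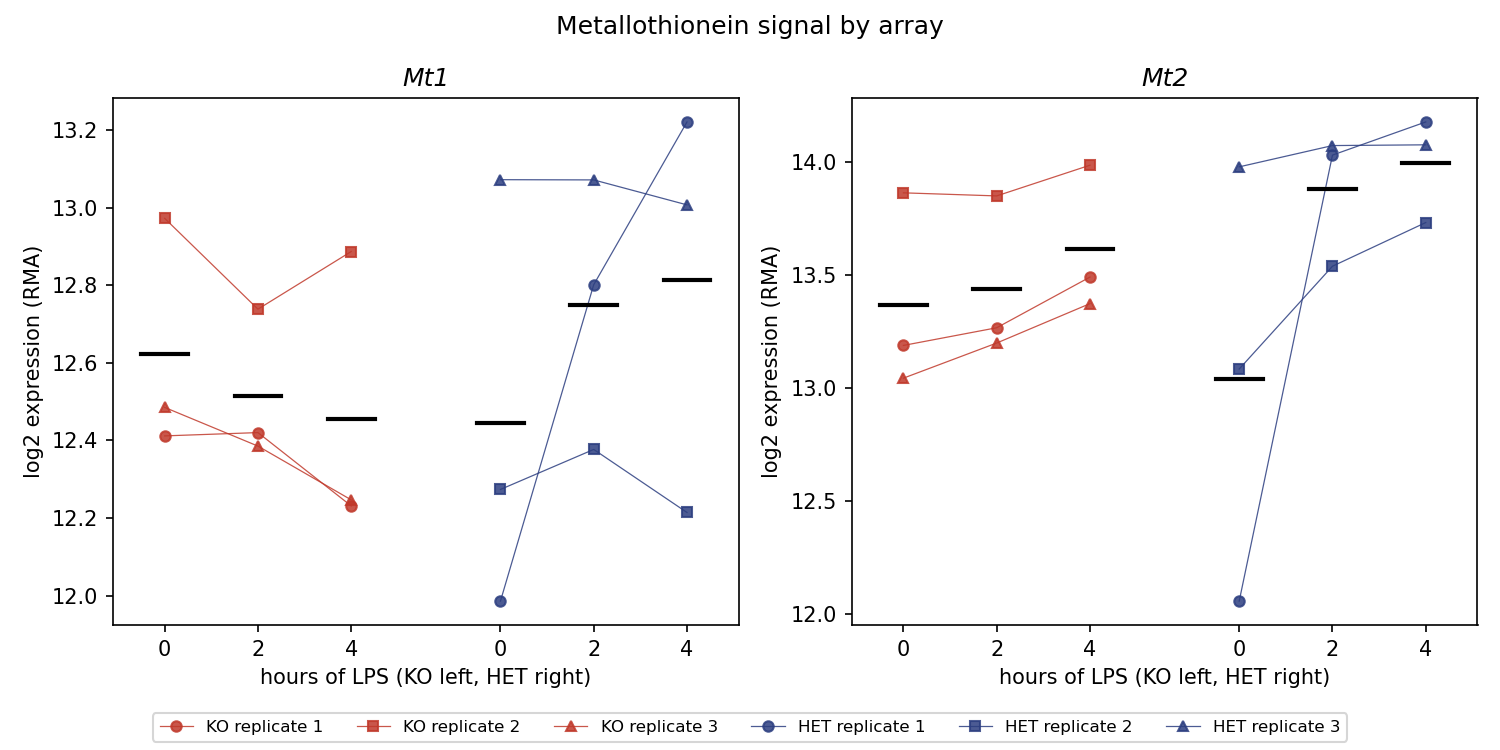
Mt1 and Mt2 log2 expression (vertical axes) on each array against hours of LPS (horizontal axes), KO left and HET right, with lines joining arrays of one genotype and replicate number and black bars at group means. Mt2 in HET replicate 1 is 12.06 untreated and 14.18 at 4 h, while HET replicate 3 is 13.98 and 14.07.

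Counted over the set, LPS moved transporters in both directions. In KO cells at 2 h, 0 of 10 passed by limma, where 3.35% of all genes did, and 3 at an unadjusted p under 0.05, where 12.0% of all genes did. The count that passed became 1, with Slc30a6, without KO 2 h replicate 2, untreated HET replicate 1 or 3, or HET 4 h replicate 1. In those fits 2.63% to 3.77% of all genes passed. At 4 h in KO cells 3 of 9 passed, with Slc30a4 left uncounted, against 15.8% of all genes: Slc30a1 and Slc30a6 higher (6.48% of genes) and Slc30a5 lower (9.28%). In HET cells at 2 h, 2 of 10 passed against 15.6%, Slc30a6 higher (5.56% of genes) and Slc30a5 lower (10% of genes). At 4 h in HET cells 5 of 9 passed against 36.4%, 3 higher (15.7% of genes) and 2 lower (20.7%). The median 4 h change of the 9 genes was 0.25 in KO and 0.37 in HET, against 0.02 and 0.09 over all genes. Between 2 and 4 h, 1 of 9 passed in KO (4.37% of genes) and 2 of 9 in HET (8.18%). For the difference between genotypes in the 2 h response, 0 of the 10 and 0 of the 19475 genes passed by limma, with 0 and 1099 at an unadjusted p under 0.05.

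**Figure D5:**
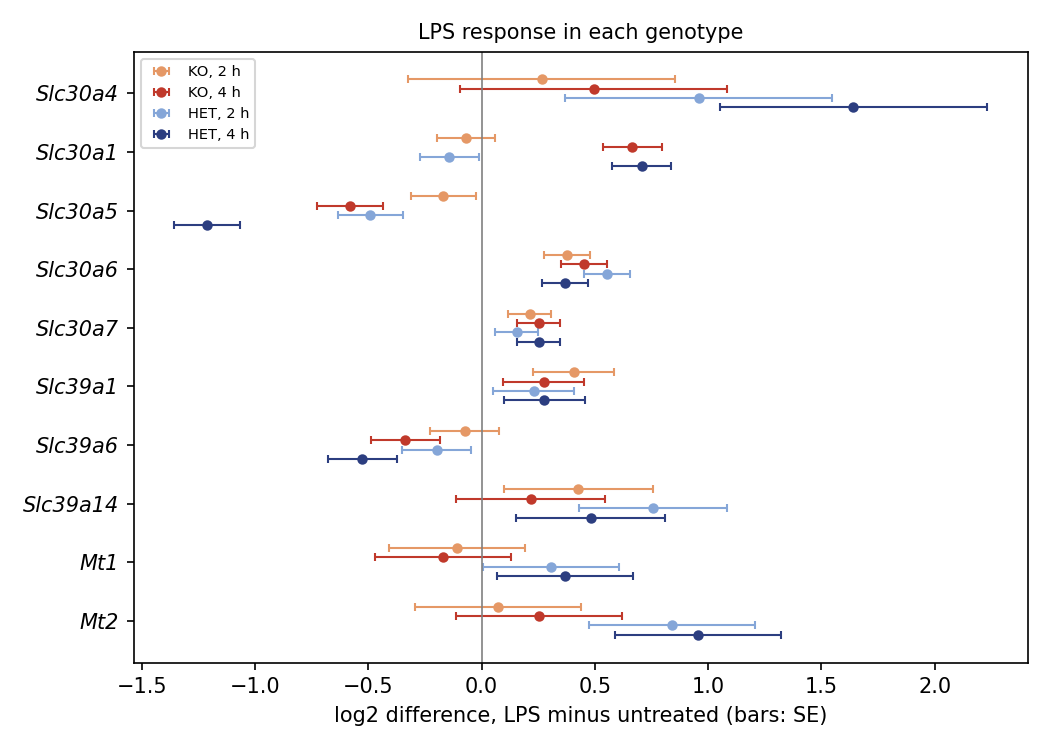
LPS minus untreated log2 difference (horizontal axis) of the 10 genes (vertical axis) at 2 h and 4 h, in KO and HET cells, with SE bars and a line at 0. Slc30a1 at 4 h stands at 0.67 in KO and 0.71 in HET, whereas Slc30a5 at 4 h stands at -0.58 and -1.21.

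The other 16 zinc transporters were all measured and none passed between the genotypes. By limma 0 passed in untreated cells, at 2 h and at 4 h, with 0, 4 and 2 at an unadjusted p under 0.05. In KO cells 0 passed for LPS at 2 h or 4 h, where 3.35% and 15.8% of all genes did (2 and 3 unadjusted, against 12.0% and 26.4%). With the replicate block 1 passed in KO at 2 h (Slc39a13) and 3 at 4 h (Slc39a2, Slc39a9 and Slc39a10), where 7.30% and 26.0% did. In HET cells 2 of 16 passed at 2 h, both lower, where 15.6% of all genes passed, and 7 of 16 at 4 h, 3 higher and 4 lower, where 36.4% did. With HET replicate 1 left out at all times these counts were 0 and 5, where 14.3% and 35.5% of all genes passed. The KO counts were then 1 at 2 h (Slc39a13) and 2 at 4 h (Slc39a9 and Slc39a13), where 8.36% and 27.7% did. With the replicate block the HET counts were 2 at 2 h and 8 at 4 h, where 25.6% and 53.7% did. Slc39a10, a plasma membrane importer, fell by 0.96 at 4 h in HET (adjusted p = 0.0461), and Slc39a2, another importer, rose by 0.73 (adjusted p = 0.0102). Slc39a9 and Slc39a7, ZIP proteins of the secretory pathway, fell by 0.61 (adjusted p = 0.000101) and 0.47 (adjusted p = 0.0130). Slc39a3 fell by 0.30 (adjusted p = 0.0139). Slc30a8, the ZnT of insulin granules in the pancreas, had a 4 h difference of 0.35 in HET (adjusted p = 0.0484) at a signal under the array's lower quartile on 9 of 9 KO and 6 of 9 HET arrays. Its HET arrays were 7.19, 6.62 and 6.98 at 4 h and 6.48, 6.78 and 6.47 untreated, so replicate 2 was lower at 4 h. Without HET replicate 1 at all times the Slc30a8 (0.17, adjusted p = 0.357) and Slc39a10 (-0.84, adjusted p = 0.114) calls were lost. The zinc sensor Mtf1 was 10.21 ± 0.183 untreated in KO and 10.31 ± 0.180 in HET (SD, n = 3 each). Mtf1, Mt3 and Mt4 passed in no comparison by limma, with 0 of the 3 at an unadjusted p under 0.05.

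The iron transporter Slc11a2 and the copper transporters Slc31a1 and Slc31a2 rose with LPS in both genotypes. Of 10 listed genes 9 were measured here, and 0 passed between the genotypes at any time by limma (0, 1 and 1 unadjusted at 0, 2 and 4 h). Slc11a2 (DMT1, an importer of iron from endosomes) rose at 4 h by 1.45 in KO (adjusted p = 9.64e-05) and 1.70 in HET (adjusted p = 1.05e-05). Slc31a2, a copper transporter of endosomes, rose by 1.35 in KO (adjusted p = 0.000402) and 1.29 in HET (adjusted p = 0.000262). Slc31a1, the main copper importer, rose by 0.69 in KO (adjusted p = 0.00249) and 0.63 in HET (adjusted p = 0.00231). At 4 h in KO cells 3 of the 9 passed, all higher, where 15.8% of all genes did. Hmox1 and Atp7a passed in HET cells at 4 h, both lower. In all 5 of the 9 passed in HET at 4 h, 3 higher and 2 lower, where 36.4% of all genes did. With the replicate block 6 of the 9 passed there, with Ftl1 added and lower, where 53.7% of all genes passed. Hmox1, a heme-degrading enzyme, fell by 0.99 (adjusted p = 0.0160) and Atp7a, a copper-exporting ATPase, fell by 0.44 (adjusted p = 0.0283), and neither passed with HET replicate 1 left out at all times (adjusted p = 0.0530 and 0.153).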

How the data were processed

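RNA of 18 macrophage samples was hybridised to Affymetrix gene arrays, 3 per group. The authors deposited log2 values per probe set, made by RMA in Partek 6.5 per the submitters' processing notes, without stated settings. Of 25344 probe sets, 21137 have 1 gene in the platform annotation and gave 19475 genes, and for the 915 genes with several the brightest one on average was taken. Values were used as deposited. One limma 3.58.1 model (R 4.3.3) with a mean per group was fitted to all genes (12 residual degrees of freedom), and a gene passed with an adjusted p (Benjamini-Hochberg, all genes of the contrast) under 0.05. The genes of the set, the gene lists and the tests were chosen with earlier results of these data known. Every gene of the set is named; of the other zinc, iron and copper lists, genes that passed are named, at most 6 per list, largest change first, and Mtf1, Mt3 and Mt4 always. Same-numbered arrays of one genotype deviated together (18 of 18 pairs, r from 0.32 to 0.80), so numbers pair arrays within a genotype; across genotypes r ran from -0.35 to 0.39, with 6 of 27 pairs over 0.1. Promoters were searched in RefSeq GRCm38.p6 tables. The model was tested on simulated data in which arrays varied independently, unlike the same-numbered arrays here, so that test does not cover their pairing. Figures used Python 3.11.15 and matplotlib 3.10.9.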

Additional observations from a re-analysis of the deposited data

How the results depend on the processing

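Of the 110 pairs of a gene and a comparison, 35 passed in at least 1 fit or concern Slc30a4, and across 25 alternative fits no call turned its direction. The sign turned for Slc30a4 between 2 and 4 h in KO, which did not pass, without KO 2 h replicate 2 or KO 4 h replicate 3. With the replicate number as a random block within genotype, the count of genes of the set that passed was 2 for LPS at 2 h in KO (0 as reported), 2 between 2 and 4 h in KO (1 as reported) and 4 at 2 h in HET (2 as reported). With that block 7.30%, 9.75% and 25.6% of all genes passed in these comparisons, against 3.35%, 4.37% and 15.6% as reported. A fixed block over all arrays gave 1 at 2 h in KO, where 4.17% of all genes passed. Quantile normalization gave 1 at 2 h in KO (3.30% of all genes) and 2 between 2 and 4 h in KO (4.35%). Leaving out dim genes gave 1 at 2 h in KO, where 5.66% of the 11685 genes kept passed. Without HET replicate 1 at all 3 times the counts were 2 at 2 h in KO, 2 between 2 and 4 h in KO and 3 at 4 h in HET (5 as reported), where 8.36%, 12.4% and 35.5% of all genes passed. Leaving out 1 array at a time gave 0 to 2 for KO minus HET at 2 h, where 0.755% to 4.93% of all genes passed. For LPS at 2 h in KO it gave 0 to 1 (2.12% to 4.25% of all genes). At 4 h in KO it gave 2 to 4 (10.4% to 18.3%), and between 2 and 4 h in KO 1 to 2 (2.26% to 5.66%). In HET it gave 1 to 2 at 2 h (9.76% to 17.997%) and 3 to 5 at 4 h (25.3% to 40.3%). The cause was not tested. With 3 arrays per group, differences near 0.5 log2 units in genes such as Slc39a14 or Mt2, whose SE exceeded 0.3, could go uncalled.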

Other observations

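Slc39a4, a zinc importer best known from the intestine, had the same highest KO array as the metallothioneins and was looked at after its values were seen. On KO arrays its log2 level was 8.67, 10.47 and 8.63 untreated, 9.19, 10.72 and 9.21 at 2 h, and 9.37, 10.95 and 9.43 at 4 h. On HET arrays it was 9.02, 8.48 and 10.07 untreated, 9.16, 8.89 and 10.12 at 2 h, and 9.22, 8.96 and 10.27 at 4 h. KO replicate 2 and HET replicate 3 were thus the highest of their genotype at each time, and Slc39a4 passed in no comparison. The transferrin receptor Tfrc, an importer of iron, had the same highest untreated arrays, with 10.46, 11.15 and 10.26 in untreated KO cells and 9.14, 10.13 and 11.11 in untreated HET cells.

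The nearest 2 protein-coding genes on each side of Slc30a4 on chromosome 2 were also looked at after the values were seen. AA467197 was lower in KO at 2 h by limma (-2.72, adjusted p = 0.0085), with -1.47 untreated (adjusted p = 0.453) and -1.46 at 4 h (adjusted p = 0.111). At 2 h it had 9.62, 8.79 and 9.80 on KO arrays and 12.94, 11.86 and 11.55 on HET arrays. Its HET arrays had 10.63, 9.30 and 8.25 untreated and 13.53, 12.96 and 12.69 at 4 h. HET replicate 1 was thus the highest HET array each time, and no value without it is given for this gene. AA467197 rose with LPS at 4 h in both genotypes, by 3.67 in KO (adjusted p = 5.68e-05) and 3.67 in HET (adjusted p = 2.53e-05). Spata5l1, Bloc1s6 and Sqor did not pass between genotypes at any time, with differences between -0.29 and 0.17.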
